A study of Mus musculus with 6 samples.

Results

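The genes described here encode 10 mitochondrial chaperones and proteases: Hspd1, Hspe1, Hspa9, Dnaja3, Trap1, Lonp1, Clpp, Clpx, Yme1l1 and Oma1. They were chosen by symbol as genes of the mitochondrial unfolded protein response, by a rule that uses no measured value but was written with earlier results of these data known, and make up 10 of the 24421 genes in the table. All 10 were found under these symbols, and all 10 were among the 13084 genes with enough counts to be tested. The libraries came from 4T1-tetL1(GLucAI) cells, a stable population of the mouse breast carcinoma line 4T1 (strain label BALB/cfC3H) in which a LINE-1 (L1) retrotransposition reporter can be switched on with doxycycline. L1 is a retrotransposon that copies itself through an RNA intermediate. All 6 libraries carry this cassette together with a constitutively expressed Tet-On transactivator. The 3 untreated libraries, called vehicle in the treatment label, were compared with 3 libraries from cells held for 48 h in 400 ng/mL doxycycline. The comparison asks how gene expression differs once L1 is induced. No library came from doxycycline-treated cells without the cassette, so doxycycline itself, a tetracycline known to act on mitochondrial ribosomes, and L1 induction cannot be told apart here.

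Most mitochondrial proteins are made in the cytosol, threaded unfolded through the membranes and folded in the matrix, the innermost compartment. HSP70 of the matrix (Hspa9) pulls them in, the HSP60 and HSP10 chamber (Hspd1 and Hspe1) folds them, and proteases of the matrix (Lonp1 and the ClpXP complex) and of the inner membrane (Yme1l1 and Oma1) remove what is damaged or no longer needed. When unfolded protein builds up in mitochondria, cells can raise the nuclear genes for these factors, a program called the mitochondrial unfolded protein response, which in mammals is linked to ATF4, ATF5 and CHOP (Ddit3).

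None of the 10 genes changed past an adjusted p of 0.05 in the quasi-likelihood test of edgeR, whereas 3.09% of all tested genes did, 0.925% higher and 2.16% lower. The DESeq2 Wald test and limma voom also called 0 of the 10. At an unadjusted p under 0.05 there were 2 of 10, Hspd1 and Oma1, beside 16.2% of all tested genes. These were also the 2 genes whose doxycycline libraries all lay above the untreated ones, and 21.3% of all tested genes had groups that did not overlap in one direction or the other. The fitted log2 fold change was above 0 for 8 genes and below 0 for Lonp1 and Yme1l1. Its median over the 10 genes was 0.06, beside 0.0025 over all tested genes, and the median size regardless of sign was 0.059, beside 0.089. A p that misses the threshold does not show equal levels, so the 95% interval of each change is given with it.

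Hspd1 and Hspe1 lie head to head on chromosome 1 (GRCm38), Hspd1 at 55077833 to 55088243 on the minus strand with 12 exons in its RefSeq transcript and Hspe1 at 55088148 to 55091317 on the plus strand with 4. Their annotated 5′ ends overlap by 96 bases, so a single stretch of DNA lies before the start of Hspe1 and inside or before the start of Hspd1, depending on the transcript. The 30 bases around a match to the heat shock element core are shown from both sides, since Hspd1 and Hspe1 share it, and the 30 bases around a match in each of the inner membrane pair Yme1l1 and Oma1 are shown because their ratio is examined further on. Capitals mark the match, GAANNTTC for the heat shock element core, CCGGAAG (the core bound by ETS factors) for Yme1l1 and GCGCANGCG read on the opposite strand (a core bound by NRF-1) for Oma1. The sequences are from the RefSeq promoter windows of GRCm38.p6 and read 5′ to 3′ on the strand of the gene.
Hspd1, chr1:55088053-55088082, minus strand: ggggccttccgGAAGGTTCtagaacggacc
Hspe1, chr1:55088053-55088082, plus strand: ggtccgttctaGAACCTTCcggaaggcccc
Yme1l1, chr2:23156421-23156450, plus strand: tgacagagtccCCGGAAGaggcggagcgct
Oma1, chr4:103313814-103313843, plus strand: gaaaggtgtgCGCCTGCGCggagccggctg
The match at 55088064 to 55088071 is 84 bases before the RefSeq start of Hspe1 and 139 bases before the alternative start of Hspd1. In the GENCODE annotation it falls in the 5′ untranslated exon of an Hspd1 transcript that starts farther upstream, and a pair of CCGGAAG matches on opposite strands overlaps it. The Yme1l1 match lies 73 bases and the Oma1 match 22 bases before the start that its promoter window was built on. The RefSeq spans of both genes begin farther upstream, at 23155442 for Yme1l1 and 103311875 for Oma1. GENCODE places both stretches in the 5′ untranslated exon of a transcript that starts farther upstream.

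Of the 10 genes, 9 had a window in the RefSeq table, and Hspa9 had none. The windows run from 250 bases before to 50 bases after a start, and both strands were searched. The heat shock element core GAANNTTC was in the windows of 2 of the 9, Hspd1 and Hspe1, by the same site, beside 7.86% of all 32851 windows. The ETS core CCGGAAG was found for 5 of 9 (Clpp, Dnaja3, Hspd1, Hspe1 and Yme1l1), beside 8.86% of windows. The ETS matches of Hspd1 and Hspe1 were again the same sites. The NRF-1 core GCGCANGCG was found for 4 of 9 (Clpx, Dnaja3, Hspd1 and Oma1), beside 6.25%. The E-box CACGTG was found for 2 of 9 (Hspd1 and Lonp1), beside 7.15%, and TGATGNAA, an element of C/EBP and ATF dimers, for 0 of 9, beside 3.97%. These genes can have more than 1 window, and a gene was counted when any of its windows held a match. The percentages count single windows, so they are not a like measure and no excess can be read from them. A match of letters in a window is not a bound site.

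The 6 libraries held between 31653464 and 43631312 counts, and 15418 to 15685 genes had at least 1 count. TMM scaling moved library sizes by about 1% at most (factors 0.99 to 1.01), and 3 counts, taken as the floor, were worth 0.0683 to 0.0944 CPM, the count relative to the scaled library size. All intervals and floors cover counting error or the spread of these libraries only. The study's text calls the replicates biological triplicates, but neither it nor the labels say how the cultures were kept apart, so p-values measure the spread between these libraries. By the chi-square of their counts, doxycycline 2 stood farthest from its replicates (22.1 and 14.5 per degree of freedom, beside 6.14 to 13.1 for the other pairs). Of the 7 epithelial markers of the carcinoma, Krt18 (633 CPM), Krt8 (410 CPM) and Cdh1 (309 CPM) were highest in untreated cells. Krt19 was at 63.5, Epcam at 33.2, Cldn4 at 26.7 and Cldn7 at 4.49 CPM. The 5 fibroblast markers summed to 35.7 to 38.7 CPM in untreated and 28.0 to 29.6 CPM in doxycycline libraries, nearly all of it Pdgfra, while Lum was at 0 in every library and Dcn at 0.12 CPM or less. Leukocyte markers summed to less than 1 CPM in every library and so did endothelial markers. The transcript of the L1 cassette was not analysed here, so the labels were not checked by it.

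The HSP60 subunit Hspd1 was the most abundant of the 10 genes. Its untreated libraries held 1229, 1187 and 1163 CPM and its doxycycline libraries 1312, 1260.3 and 1269 CPM. Every doxycycline library was above every untreated one, and the means were 1193 ± 33.5 and 1280.4 ± 27.8 CPM (SD, n = 3 each). The fitted log2 fold change was 0.10 (SE 0.04, 95% interval 0.01 to 0.19, edgeR adjusted p = 0.227), a difference of 7.32% with an interval of 0.943% to 14.1%. Its p ranked 1487 of 13084. In bulk RNA a shift of this size in transcripts per cell cannot be told apart from a shift in the make-up of the cells. Without doxycycline 2, the library farthest from its replicates, the edgeR adjusted p of Hspd1 was 0.0463 at a log2 fold change of 0.11. This was the single setting of 15 in which any of the 10 genes was called. In it, 269 of 13237 tested genes were called higher and 487 lower, beside 121 and 283 of 13084 with all 6 libraries.

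Hspe1 encodes HSP10, the lid of the HSP60 chamber. It had 218, 191 and 209 CPM in untreated libraries and 238, 192 and 209.7 CPM in doxycycline libraries. The groups overlapped, with doxycycline 1 highest and untreated 2 lowest of the 6. Its log2 fold change was 0.05 (95% interval -0.09 to 0.18, edgeR adjusted p = 0.788), and it took the other sign without doxycycline 1 (-0.04) or without untreated 2 (-0.0025). The count ratio of Hspd1 to Hspe1, which does not depend on library scaling, was 5.64, 6.20 and 5.57 in untreated and 5.52, 6.58 and 6.05 in doxycycline libraries. The highest ratio was in doxycycline 2 and the lowest in doxycycline 1, so the groups overlapped fully (two-sided exact permutation p = 0.7, adjusted p = 0.7 over 5 ratios). Both genes have processed pseudogenes, 5 named ones for Hspd1 and 6 for Hspe1, and 44.8% of the 50-base windows of each transcript also occur in another gene's transcript. Windows were matched on both strands, and the genes that share most with Hspe1 include Hspd1 itself, so this share is not all pseudogene sequence. How reads with several matches were counted is not given in the sources used here, so the counts of Hspd1 and Hspe1 are uncertain to that extent.

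Hspa9, the HSP70 of the matrix, also called mortalin, is the motor of protein import. It is on chromosome 18 (34937414 to 34954351, minus strand, 17 exons) and hosts 2 small nucleolar RNA genes, Gm22200 and Gm26109. Untreated libraries held 710.3, 692 and 649 CPM and doxycycline libraries 688, 711 and 707 CPM. The groups overlapped, with untreated 3 the lowest of the 6 libraries. Hspa9 had a log2 fold change of 0.04 (95% interval -0.05 to 0.13, edgeR adjusted p = 0.735). The ratio of Hspd1 to Hspa9 was 1.73, 1.72 and 1.79 in untreated and 1.91, 1.77 and 1.79 in doxycycline libraries (exact permutation p = 0.2, adjusted p = 0.333).

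Dnaja3 (Tid1), on chromosome 16 (4684070 to 4707695, plus strand, 12 exons), is a J-protein that stimulates the ATPase of matrix HSP70. It had 67.0, 64.4 and 60.6 CPM in untreated libraries and 66.6, 67.5 and 68.9 CPM in doxycycline libraries. Untreated 1 lay within the range of the doxycycline libraries and the other untreated libraries below it. For Dnaja3 the log2 fold change was 0.08 (95% interval -0.04 to 0.20, edgeR adjusted p = 0.519). Counts of Hspa9 per count of Dnaja3 were 10.6, 10.7 and 10.7 in untreated and 10.3, 10.5 and 10.3 in doxycycline libraries. This ratio was the steadiest of the 5 within groups and did not overlap between them. The log2 difference was small, -0.04, and the exact permutation p was 0.1, the smallest that 3 against 3 libraries can give (adjusted p = 0.25).

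Trap1, the mitochondrial member of the HSP90 family, is also on chromosome 16 (4039971 to 4077840, minus strand, 18 exons). Its libraries held 116, 124 and 109.9 CPM untreated and 114, 129.9 and 122 CPM with doxycycline. The highest library was doxycycline 2 and the lowest untreated 3, and the groups overlapped. Its log2 fold change was 0.07 (95% interval -0.05 to 0.19, edgeR adjusted p = 0.589). Its annotated end overlaps the neighbouring Dnase1 by 54 bases, but Dnase1 had only 1004 counts over all libraries.

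Lonp1 encodes the ATP-driven LON protease, which degrades oxidised and misfolded matrix proteins. It is on chromosome 17 (56614297 to 56626903, minus strand, 18 exons), with the start of Catsperd close by. Untreated libraries held 106, 96.9 and 102 CPM and doxycycline libraries 95.9, 107 and 99.2 CPM. The groups covered almost the same range, and both the highest and the lowest library were doxycycline ones. The log2 fold change was -0.01 (95% interval -0.12 to 0.10, edgeR adjusted p = 0.943), ranking 11408 of 13084 by p. Its sign turned without untreated 1 (0.02) or without doxycycline 1 (0.02).

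Clpp encodes the proteolytic chamber and Clpx the AAA+ unfoldase of the ClpXP protease. Clpp, on chromosome 17 (56990264 to 56996371, plus strand, 6 exons), had 27.6, 28.3 and 27.8 CPM in untreated libraries and 26.6, 32.5 and 31.1 CPM in doxycycline libraries. The untreated libraries lay close together (coefficient of variation 1.31%), while those with doxycycline spread 10.4% and enclosed them. Counting error alone gives 3.44% at the smallest of its counts, above the spread of the untreated libraries. Gm33509, a long noncoding RNA gene, lies close to its start. The log2 fold change of Clpp was 0.11 (95% interval -0.05 to 0.27, edgeR adjusted p = 0.505).

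Clpx, on chromosome 9 (65294251 to 65330658, plus strand, 14 exons), had 42.1, 41.7 and 40.2 CPM in untreated libraries and 40.7, 42.2 and 44.3 CPM in doxycycline libraries. The groups overlapped, and the log2 fold change was 0.04 (95% interval -0.09 to 0.16, edgeR adjusted p = 0.835). The pseudogene Gm16218 lies on the opposite strand within its span (3134 bases of overlap). Clpx counts per Clpp count were 1.53, 1.48 and 1.45 in untreated and 1.53, 1.30 and 1.42 in doxycycline libraries. Doxycycline 2 and 3 lay below the untreated range and doxycycline 1 at its upper end (exact permutation p = 0.5, adjusted p = 0.625).

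Yme1l1, an AAA+ protease of the inner membrane facing the intermembrane space, is on chromosome 2 (23155442 to 23199260, plus strand, 19 exons). Its libraries held 265, 279 and 281 CPM untreated and 283, 244 and 272 CPM with doxycycline. Doxycycline 2 was the lowest of the 6 and doxycycline 1 the highest. The log2 fold change was -0.05 (95% interval -0.16 to 0.06, edgeR adjusted p = 0.704) and had the other sign without doxycycline 2 (0.01). The RefSeq span of the gene, which includes a start farther upstream than that of the promoter window, overlaps Mastl on the opposite strand by 583 bases, while the GENCODE spans of these genes do not overlap. Mastl had 17984 counts in all, and the strand setting of the counting is not given in the sources used here, so on a RefSeq-like annotation reads of this overlap could belong to either gene.

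Oma1, a stress-activated metalloprotease of the inner membrane that cleaves the fusion protein OPA1 and the messenger DELE1, had the largest fold change of the 10 and the lowest level. It lies on chromosome 4 (103311875 to 103371869, plus strand, 9 exons), where its span overlaps the long noncoding RNA gene Gm36523 by 1848 bases and 4930456L15Rik, with 0 counts in every library, lies close to its start. Untreated libraries held 6.10, 6.50 and 6.38 CPM and doxycycline libraries 7.99, 7.89 and 7.52 CPM. The groups did not overlap, and the doxycycline mean was 7.80 ± 0.244 CPM beside 6.33 ± 0.206 CPM untreated (SD, n = 3 each). The log2 fold change was 0.30 (SE 0.12, 95% interval 0.05 to 0.55), a difference of 23.3% with an interval of 3.74% to 46.5%. With an edgeR adjusted p of 0.203 and a p ranking 1277 of 13084, it did not pass the test. Over 15 alternative settings the log2 fold change of Oma1 ran from 0.27 to 0.33 and its adjusted p from 0.131 to 0.409. These levels rest on 268, 217 and 239 counts untreated and 254, 322 and 288 counts with doxycycline. Counting error alone gives a coefficient of variation of 6.79% at the smallest of these counts, above the 3.25% and 3.13% seen between libraries of a group.

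Yme1l1 and Oma1 were also compared as a ratio within each library. Counts of Yme1l1 per count of Oma1 were 43.5, 42.9 and 44.1 in untreated libraries and 35.4, 30.9 and 36.1 in doxycycline libraries. All doxycycline libraries were below all untreated ones, with a log2 difference of -0.35. The exact permutation p was 0.1, the smallest that 3 against 3 libraries can give, and the adjusted p over the 5 ratios was 0.25. The lowest ratio was in doxycycline 2, where Yme1l1 was lowest.

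**Figure D1:**
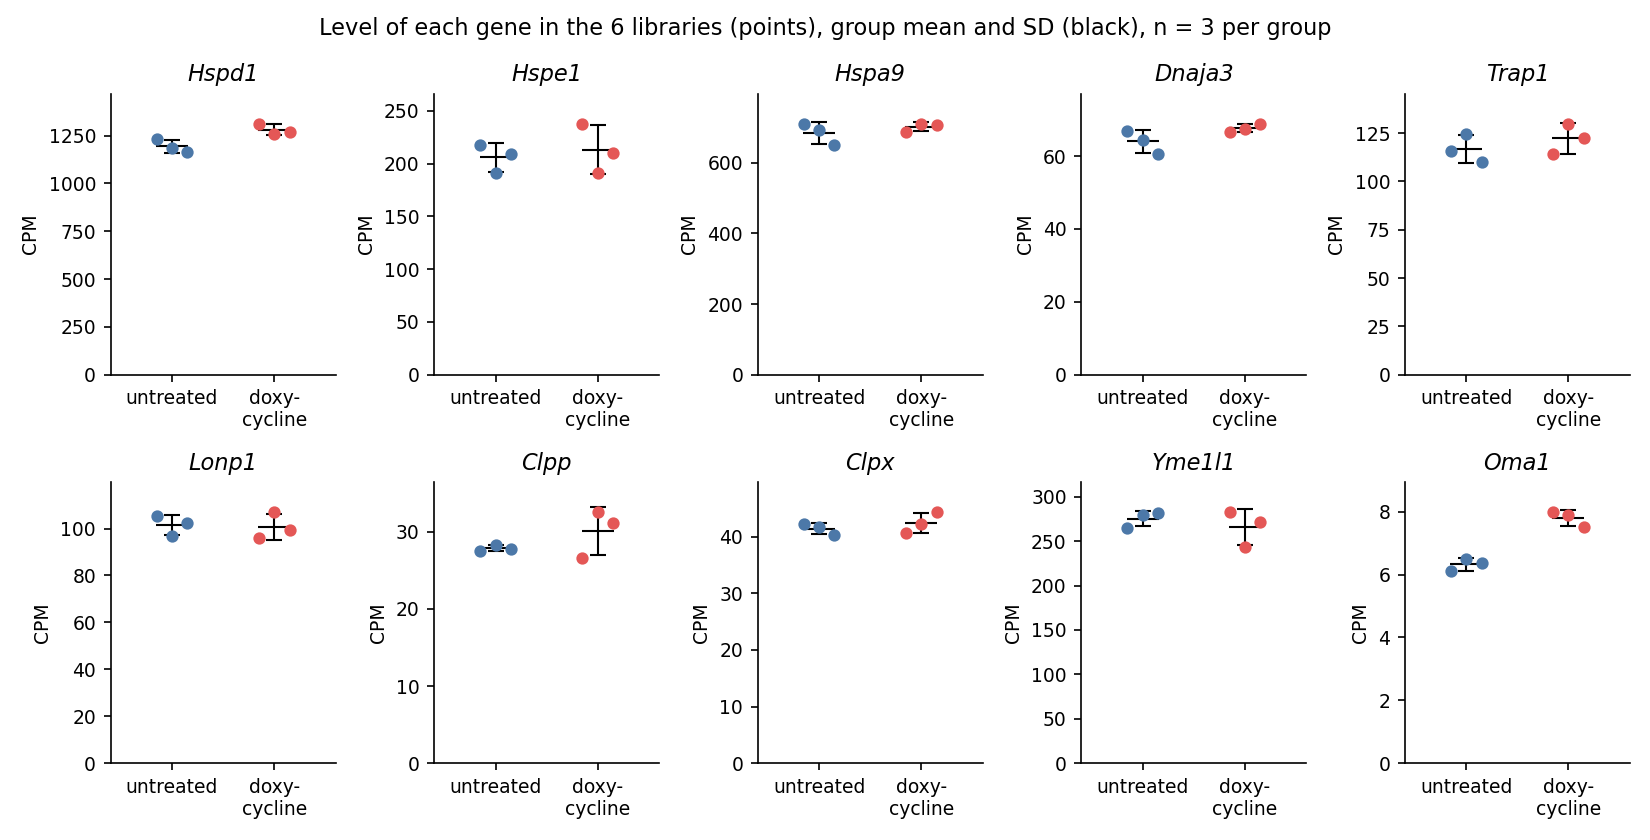
Each panel plots 1 gene in CPM on an axis from 0, with the 3 untreated libraries in blue, the 3 doxycycline libraries in red, and the group mean and SD in black. Only for Hspd1 and Oma1 do all red points lie above all blue points, and the red points of Hspe1, Clpp and Yme1l1 are the most spread out.

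**Figure D2:**
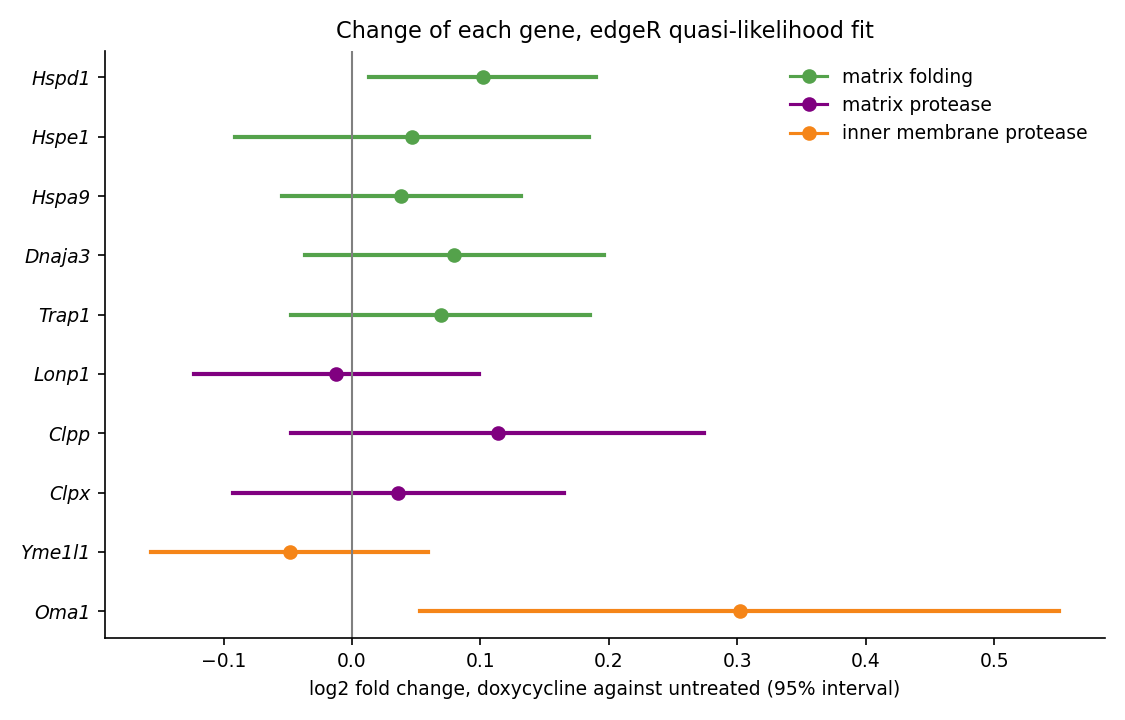
The log2 fold change of each gene (points, doxycycline against untreated, edgeR) is plotted with its 95% interval (lines), coloured by role. The intervals of Hspd1 (0.01 to 0.19) and Oma1 (0.05 to 0.55) lie above 0, and the other 8 include 0.

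**Figure D3:**
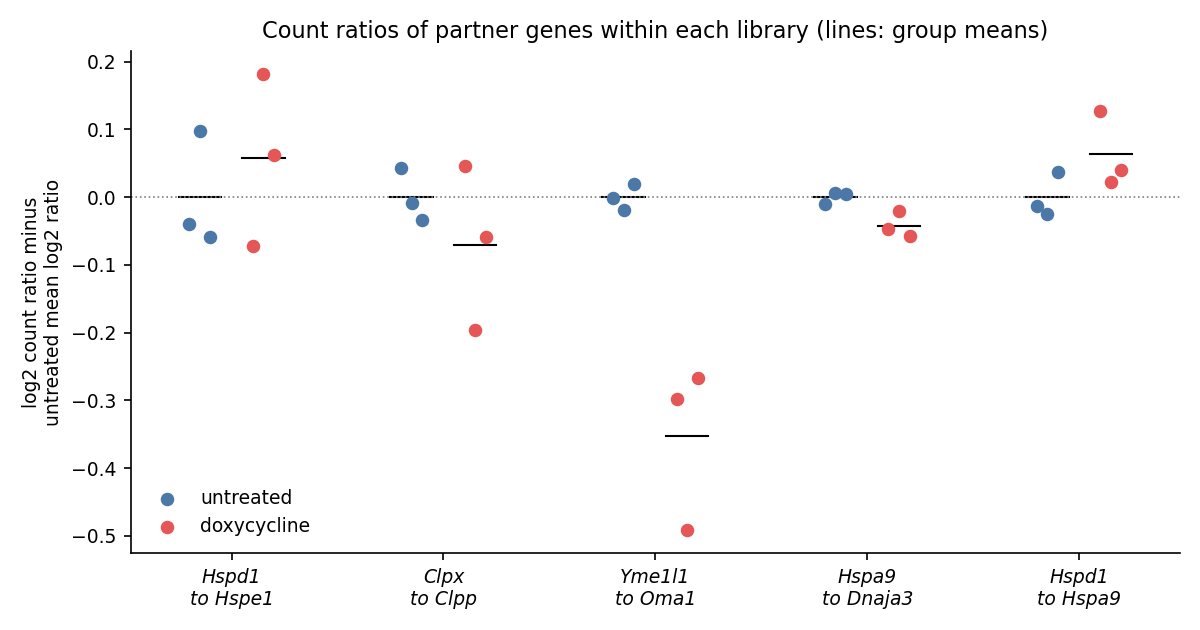
The log2 count ratio of 5 pairs of genes is plotted in every library relative to the untreated mean of that pair, with the group mean as a black line. The Yme1l1 to Oma1 ratios of the doxycycline libraries lie apart from the untreated ones by 0.35 on average, and those of Hspa9 to Dnaja3 by 0.04, while the other 3 pairs overlap.

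By role, the 5 folding factors of the matrix made up 83.8% of the counts of the 10 genes, the 3 matrix proteases 6.20% and the 2 inner membrane proteases 10.0%. The folding factors summed to 2339.9, 2258 and 2192 CPM in untreated libraries and to 2419, 2360.0 and 2377 CPM in doxycycline libraries. These sums did not overlap. Hspd1 was the largest part of each sum and the only 1 of the 5 whose own groups did not overlap. The sums therefore do not show a shift of all 5. Several related lists described below also had sums that did not overlap. Co-chaperones and other folding factors summed to at most 423 CPM untreated and at least 434 CPM with doxycycline. Sums of the other mitochondrial proteases, the chaperones of other compartments and the stress signalling genes did not overlap either. Those of the inner membrane protease partners and of the mass and biogenesis genes did. The matrix proteases summed to 175, 167 and 170.2 CPM untreated and 163, 182 and 175 CPM with doxycycline, which overlapped. The inner membrane proteases summed to 271, 286 and 288 CPM untreated and to 291, 252 and 279 CPM with doxycycline, and these overlapped as well. Together the 10 genes took 0.267% to 0.289% of all counts in a library.

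Levels of different genes were compared per kilobase of exon, as CPM divided by the length of all annotated exons of the gene. On this scale the untreated means ran from 452 ± 12.7 for Hspd1 through 159 ± 7.26 for Hspa9, 139.8 ± 9.18 for Hspe1, 45.3 ± 2.84 for Trap1 and 34.4 ± 1.09 for Yme1l1. Below them came Lonp1 at 23.2 ± 0.992, Clpp at 22.8 ± 0.299, Dnaja3 at 16.4 ± 0.819, Clpx at 11.8 ± 0.283 and Oma1 at 2.95 ± 0.096 (SD, n = 3 untreated libraries). Neighbours in this order had ranges that did not overlap, except Lonp1 and Clpp, which cannot be ordered. Hspd1 stood at the 99.6th percentile of 12577 genes ranked this way, Clpx at the 69.0th and Oma1 at the 34.4th.

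The order depends on the length used. With the length of the RefSeq transcript in place of all exons, Hspe1 (266) stood above Hspa9 (224) and Yme1l1 (58.5) above Trap1 (50.3). The other places in the order were kept, but Lonp1 (32.9 to 35.8) and Clpp (28.0 to 28.8) then had ranges that did not overlap. Among relatives that fold proteins elsewhere in the cell, the cytosolic HSP70 Hspa8 had 396 and the endoplasmic reticulum HSP70 Hspa5 416 per kilobase of exon, above Hspa9 at 159. The cytosolic HSP90 genes Hsp90ab1 (1121) and Hsp90aa1 (565) and the endoplasmic reticulum member Hsp90b1 (223) were all above Trap1 at 45.3. Hspd1 was above each of the measured subunits of the cytosolic TRiC chamber, of which Cct5 (219) and Cct2 (212) were highest.

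**Figure D4:**
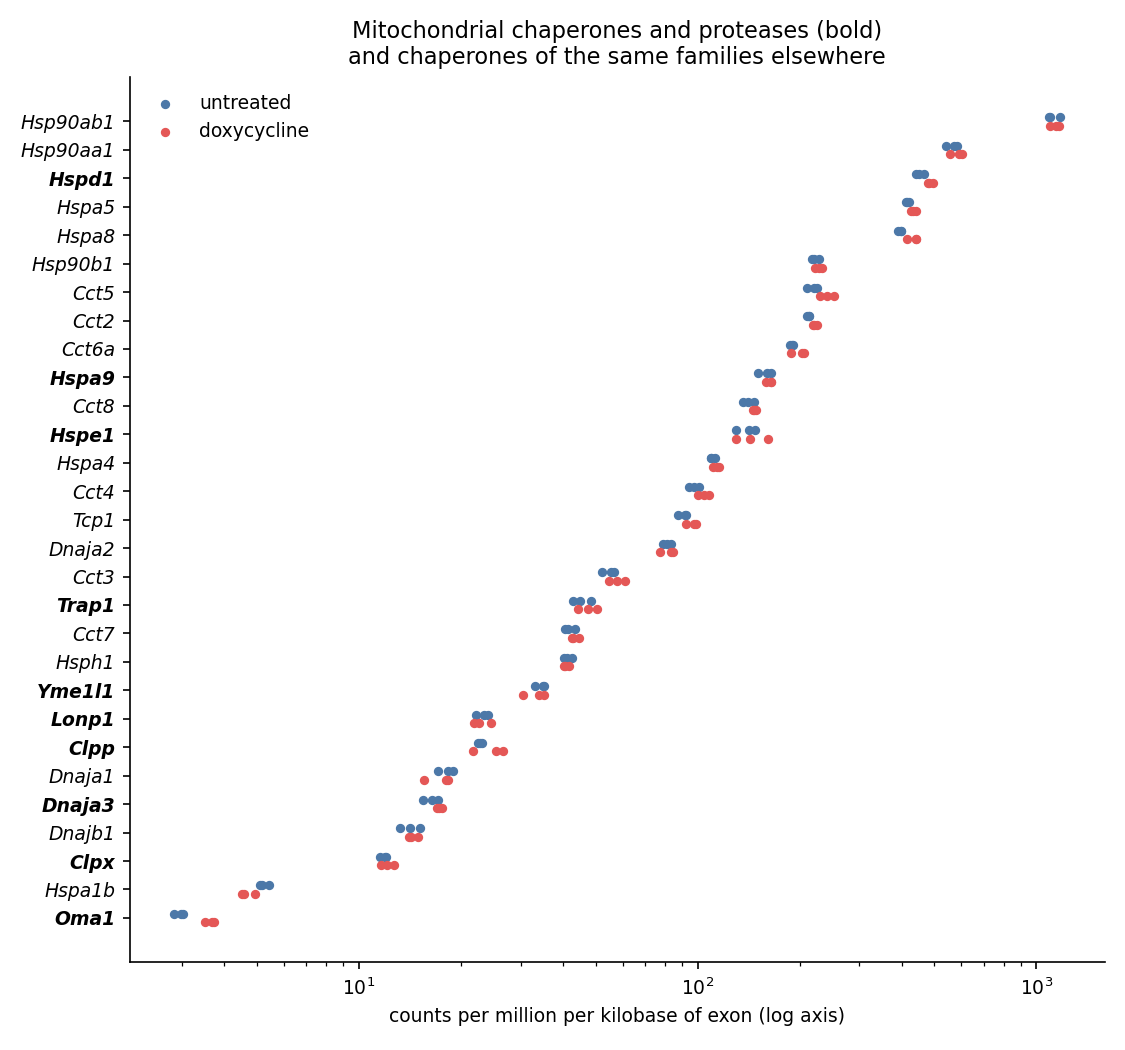
Levels per kilobase of exon (log axis) are plotted for the 10 mitochondrial genes (bold) and for chaperones of the same families in other compartments, each point 1 library, blue untreated and red with doxycycline. The 10 genes span the range from Hspd1, near 452, to Oma1, near 2.95. The shifts between groups are small beside this range, though not beside the distance between every pair of neighbours, such as Lonp1 and Clpp.

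Of 18 listed genes of mitochondrial stress signalling, 16 were tested. The list holds regulators, target genes and secreted proteins. Of the 16, 2 were higher and 2 lower (edgeR, adjusted p under 0.05), beside 3.09% of all tested genes called in either direction. Among these 16, 6 had no overlap between groups, beside 21.3% of all tested genes. Atf4, a transcription factor of the integrated stress response, rose from 170.3 ± 4.38 to 196 ± 7.63 CPM (log2 fold change 0.20, adjusted p = 0.0149), and its target Asns, asparagine synthetase, rose from 121 ± 3.04 to 141 ± 9.32 CPM (0.21, adjusted p = 0.0221). Chac1 (0.16, adjusted p = 0.328) and Trib3 (0.08, adjusted p = 0.788), also targets of ATF4, were not called. Foxo3, a forkhead factor, fell from 19.3 ± 0.978 to 14.0 ± 1.17 CPM (-0.46, adjusted p = 0.00509), and Cebpb, a bZIP factor, fell from 55.7 ± 2.79 to 47.5 ± 2.36 CPM (-0.23, adjusted p = 0.04). Atf5, a factor tied to the mitochondrial unfolded protein response, was at 23.0 ± 2.53 and 23.3 ± 0.846 CPM (0.01, adjusted p = 0.961). Ddit3 (CHOP) was at 4.92 and 4.25 CPM (-0.21, adjusted p = 0.552), and Dele1, listed as 0610009O20Rik, at 22.0 and 21.8 CPM (-0.02, adjusted p = 0.951). Gdf15 and Fgf21, secreted proteins released under mitochondrial stress, were too low to be tested. With single libraries left out, 1 of these genes was called without untreated 1, untreated 2 or doxycycline 3, 0 without untreated 3, and 4 without either of the other two.

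For the lists that follow, 16.2% of all tested genes had an unadjusted p under 0.05 and 50.8% had a log2 fold change above 0. Of 12 co-chaperones and other folding factors, 0 passed the test, 4 had an unadjusted p under 0.05 and 9 had a log2 fold change above 0 (median 0.06). The smallest p-values were those of Dnajc11, a J-protein of the outer membrane (63.4 to 70.9 CPM, log2 fold change 0.16, adjusted p = 0.142), and of Ppif, the matrix prolyl isomerase cyclophilin D (42.8 to 48.0 CPM, 0.16, adjusted p = 0.156). Grpel1, the nucleotide exchange factor of Hspa9, was at 63.4 and 63.2 CPM (adjusted p = 0.983). Of 16 other mitochondrial proteases, 0 passed, 2 had an unadjusted p under 0.05 and 13 were above 0 (median 0.08). These were the intermembrane space protease Htra2 (22.7 to 26.9 CPM, 0.25, adjusted p = 0.144) and the intermediate peptidase Mipep (24.3 to 27.5 CPM, 0.18, adjusted p = 0.189).

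Of 11 partners and substrates of the inner membrane proteases, 0 passed, 2 had an unadjusted p under 0.05 and 8 were above 0 (median 0.05). Stoml2, which forms a scaffold around Yme1l1, was at 67.9 ± 2.43 CPM untreated and 77.2 ± 1.84 CPM with doxycycline (log2 fold change 0.19, adjusted p = 0.0652), and its groups did not overlap. Phb, a prohibitin of the same membrane, was at 104 and 112 CPM (0.11, adjusted p = 0.249). Opa1, the substrate that Oma1 and Yme1l1 cut at different sites, was at 153 and 159 CPM (adjusted p = 0.644).

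Outside mitochondria, 0 of 19 tested chaperones of the same families passed, 3 had an unadjusted p under 0.05 and 16 were above 0 (median 0.05). Hspa8 was at 1701 and 1858 CPM (log2 fold change 0.13, adjusted p = 0.118) and Cct5 at 606 and 667.0 CPM (0.14, adjusted p = 0.118). Hspa1b, a heat-inducible HSP70, was at 14.7 and 13.1 CPM (adjusted p = 0.394). For mitochondrial mass and biogenesis, 0 of 14 tested genes passed, 1 had an unadjusted p under 0.05 and 4 were above 0 (median -0.01). That gene was Polg, the mitochondrial DNA polymerase (48.7 to 54.6 CPM, 0.17, adjusted p = 0.175), followed by the transcription factor Nrf1 (45.7 to 49.2 CPM, 0.11, adjusted p = 0.447). Among the markers used to check the cells, Krt19 fell from 63.5 ± 2.15 to 51.4 ± 4.22 CPM (-0.31, adjusted p = 0.00782) and Pdgfra from 36.7 ± 1.37 to 27.8 ± 0.669 CPM (-0.40, adjusted p = 0.000952). Of the 7 epithelial markers, Krt19 was the only 1 with a log2 fold change below 0. The other 6 were above 0 and none of them was called. Their smallest p-values were those of Cldn4 (0.25, edgeR adjusted p = 0.0858) and Cldn7 (0.33, edgeR adjusted p = 0.23). Krt19 was not called without untreated 2 or without doxycycline 3. The part of these shifts in the values of the 10 genes was not tested.

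The genes whose log2 level followed the mean of the 10 most closely over the 6 libraries were Dlst, a subunit of 2-oxoglutarate dehydrogenase (Pearson r 0.997), the glutamine transporter Slc1a5 (0.995), the ribosome assembly factor Grwd1 (0.990), the nucleolar helicase Ddx21 (0.989) and the inositol phosphate kinase Ippk (0.986). These are the highest correlations among all tested genes other than the 10, over 6 libraries that share their 2 groups, and they are given as a description. Of these 5, Slc1a5 rose from 107 to 123 CPM (log2 fold change 0.20, adjusted p = 0.0257), Grwd1 from 51.6 to 61.6 CPM (0.25, adjusted p = 0.0245) and Ippk from 20.5 to 25.2 CPM (0.30, adjusted p = 0.0329). Dlst (0.09, adjusted p = 0.31) and Ddx21 (0.12, adjusted p = 0.126) did not pass the test.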

How the data were processed

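Total RNA depleted of ribosomal RNA was sequenced from 6 libraries. The authors aligned reads with STAR to GRCm38, counted them per gene with featureCounts (Subread 1.6.2 per the labels) and deposited raw counts; strand setting and multi-mapping were not given in the sources used here. All columns matched a sample. Genes kept by filterByExpr were fitted with edgeR 4.0.16 in R 4.3.3 (TMM, robust quasi-likelihood test, two-sided, Benjamini-Hochberg over all 13084 genes, threshold 0.05). Of the 24421 genes, 6760 had no count. The 95% interval used the SE (log2 fold change over the square root of F) and the fit's degrees of freedom. CPM used TMM-scaled library sizes. Lengths and overlaps were from GENCODE vM21 and RefSeq, coordinates counted from 1. Ratios of counts were compared by exact two-sided permutation.

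The 10 genes and all lists were chosen with earlier results of these data known. All 10 genes are named, and of each other list the genes past the threshold or else the 2 smallest p-values, neighbours within 1000 bases and the 5 most alike genes. Atf5, Ddit3, Dele1, Gdf15, Fgf21, Chac1, Trib3, Grpel1, Opa1 and Hspa1b were named outside this rule. So were the markers Krt8, Krt18, Cdh1, Epcam, Cldn4, Cldn7, Lum and Dcn, and the relatives compared per kilobase. The alternatives were other scalings and filters, DESeq2 1.42.0, limma 3.58.1 voom, a replicate block, leaving out each library, RefSeq lengths and, added after the data were seen, a correction for GC content and length. The code was tested on simulated data. No protein sequences were used here.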

Additional observations from a re-analysis of the deposited data

How the results depend on the processing

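Over 15 alternative settings, each of the 10 genes but Hspd1 stayed uncalled, and 7 kept the sign of their change. Leaving out single libraries gave Hspd1 a log2 fold change of 0.083 to 0.12, and without doxycycline 2 it passed (log2 fold change 0.11, edgeR adjusted p = 0.0463), so 1 of 10 genes was called. Signs turned for Lonp1 (leave-out range -0.059 to 0.021), Hspe1 (-0.040 to 0.12) and Yme1l1 (-0.094 to 0.010, and 0.0020 with the GC content and length correction), and for the log2 ratio of Hspd1 to Hspe1 without doxycycline 2 (-0.0049). The cause was not tested. Deviations from the group mean correlated at -0.055, 0.0038 and 0.016 between same-numbered libraries, and at -0.076 to 0.071 between differently numbered ones. These values cannot show whether the cultures were paired. With a replicate block 0 of the 10 genes were called, with 118 genes of the whole table higher and 300 lower (Hspd1 0.10, edgeR adjusted p = 0.265). Counts over all tested genes moved more, with 210 higher and 439 lower without a filter, 185 higher with DESeq2 and 393 higher with the GC content and length correction. Leaving out single libraries gave 44 to 269 higher and 116 to 487 lower, both largest without doxycycline 2, the setting in which Hspd1 passed. Without a filter, 1 partner of the inner membrane proteases and 2 epithelial markers were called. DESeq2 called 1 partner and 1 chaperone of other compartments. The GC content and length correction called 1 co-chaperone, 1 other protease, 1 partner, 2 chaperones of other compartments, 1 biogenesis gene and 2 epithelial markers. Leaving out single libraries gave 0 to 4 stress signalling genes, 0 to 1 other proteases, 0 to 1 partners, 0 to 2 chaperones of other compartments and 0 to 2 epithelial markers. With the RefSeq transcript length, levels per kilobase were 492 for Hspd1, 266 for Hspe1, 224 for Hspa9, 58.5 for Yme1l1, 50.3 for Trap1, 34.4 for Lonp1, 28.3 for Clpp, 24.2 for Dnaja3, 14.3 for Clpx and 3.31 for Oma1. Depth limits Oma1 most, at 217 to 322 counts a library.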
